A study of Mus musculus with 4 samples.

Results

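Promoter-distal loops are the pairs of genomic intervals (anchors) in the H3K27ac HiChIP table of which exactly 1 overlapped a transcription start site of a protein-coding gene while the other overlapped no start site of any gene in GENCODE M21 (GRCm38). With a minimum of 20 read-pair counts summed over the 4 libraries, 41299 of the 108034 loops at that minimum (38.2%) were of this kind. The others were 33164 loops between promoters, 17825 loops between distal anchors, and 15746 loops in which an anchor had only start sites of non-coding genes. The rule rests on counts summed over both strains and on annotation, not on a difference between strains. Just inside the minimum there were 2265 promoter-distal pairs with 20 counts, and just outside it 2442 pairs with 19 counts, at median distances of 133 and 128 kb.

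The libraries came from mouse embryonic stem cell lines of 2 inbred strains, C57BL/6J (B6: lines B6 4-1 and B6 5-1, replicates 1 and 2) and DBA/2J (D2: lines D2 2-9 and D2 5-5, replicates 1 and 2), with 1 library per line. All lines were grown in serum medium with LIF, the MEK inhibitor PD0325901 and the GSK3 inhibitor CHIR99021, and the labels name no engineered allele. HiChIP ligates the ends of chromatin fragments that lie close together in fixed nuclei, here cut with DpnII, and enriches them with an antibody, here against H3K27ac. The strain comparison therefore rests on 2 lines against 2, and p-values measure the spread between those lines.

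Acetylation of histone H3 at lysine 27 marks active promoters and active enhancers. Enhancers lie outside promoters and act on transcription from a distance, often passing over genes that lie between, so the gene closest to an enhancer need not be the gene it contacts. In embryonic stem cells, genes that maintain pluripotency are known for clusters of such elements bound by Pou5f1, Sox2, Nanog and Esrrb. A HiChIP count rises with the contact frequency of 2 anchors and also with the H3K27ac signal on them, and these cannot be told apart here, nor can fewer cells with a contact and fewer contacts per cell.

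Sequences of distal anchors are shown for 2 reasons: the distal anchor of Zfp951, whose loop had no count in D2 and which held a match to the shorter form of the joined motif described next, and distal anchors of pluripotency genes. Anchors were searched on both strands of GRCm38, whose sequence is that of C57BL/6J. The joined Pou5f1 and Sox2 motif, an octamer followed by a Sox site with 1 unspecified base between, was found in 4 of 16339 distal anchors and in none of those in the strongest loops of pluripotency genes, and a shorter form of it, which every longer match contains, was found in 0.624% of distal anchors and 0.661% of all 56562 anchors. The Esrrb motif was searched as TCAAGGTCA after the composite motif had been found in none of the pluripotency distal anchors. It was in 18.4% of distal anchors and 16.3% of all anchors, at median widths of 4401 and 4080 bp. Per Mb of anchor there were 37.4 and 33.7 matches. Distal anchors with a match had a median width of 6438 bp, against 4124 bp for those without. The motif was present in the distal anchor of the strongest loop of 10 of the 17 pluripotency genes with a loop, and absent for Sox2, Nanog, Klf4, Dppa3, Stat3, Lin28a and Mycn. These anchors were not matched for width, so the 10 of 17 cannot be set against the 18.4%. The 5 windows of these 10 in which under 50% of the bases are repeat-masked are printed, with the matched letters in capitals. A match shows only that the letters are there.
Zfp951 distal anchor, chr5:104729514-104729645, minus strand: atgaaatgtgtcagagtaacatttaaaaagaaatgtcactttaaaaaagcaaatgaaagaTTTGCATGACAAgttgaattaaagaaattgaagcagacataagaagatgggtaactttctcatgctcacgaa
Prdm14 distal anchor, chr1:13115328-13115426, plus strand: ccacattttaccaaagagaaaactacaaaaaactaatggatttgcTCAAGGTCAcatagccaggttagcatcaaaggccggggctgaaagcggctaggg
Tcl1 distal anchor, chr12:105089790-105089888, plus strand: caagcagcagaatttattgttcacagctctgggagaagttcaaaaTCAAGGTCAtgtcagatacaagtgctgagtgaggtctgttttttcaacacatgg
Fgf4 distal anchor, chr7:144824835-144824933, plus strand: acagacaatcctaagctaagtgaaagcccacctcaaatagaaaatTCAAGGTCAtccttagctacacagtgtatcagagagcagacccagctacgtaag
Tdgf1 distal anchor, chr9:110980281-110980379, minus strand: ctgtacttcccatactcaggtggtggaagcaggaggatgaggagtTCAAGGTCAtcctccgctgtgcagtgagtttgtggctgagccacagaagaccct
Sall4 distal anchor, chr2:168851682-168851780, minus strand: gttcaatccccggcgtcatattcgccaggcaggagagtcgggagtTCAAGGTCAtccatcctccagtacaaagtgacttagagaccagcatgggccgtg
The Zfp951 window is 65.2% repeat-masked. The Prdm14 window has no masked base, the Tcl1 window 5.05%, and the other three 40.4 to 44.4%. Among the loops of the named genes to these anchors, those of Prdm14 and Zfp951 reached the gene nearest to the anchor and the other four did not. The nearest gene was Glrx5 for the Tcl1 anchor, which reached the eighth nearest gene with 5 gene starts between. The nearest gene was Fgf3 for the Fgf4 anchor, Rtp3 for the Tdgf1 anchor and Zfp64 for the Sall4 anchor, each of which reached the second nearest. Tdgf1 shares its promoter anchor with Lrrc2, and Sall4 with Atp9a, and the rank is that of the closest gene in the anchor.

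The tables held 2767882 to 2944258 counts per library. D2 replicate 1, the library with the lowest total, is also the only one whose library name carries the mark 10cyc where the others carry 8cyc, and the labels do not explain the mark. It stood apart from the others in the share of counts between promoters, 24.3% of its counts against 20.5 to 21.5%. Of 10 embryonic stem cell markers, 7 had promoter-distal loops, with 1321 and 1376 summed counts in the B6 libraries and 1971 and 1455 in the D2 libraries. The start sites of Esrrb, Klf2 and Tfcp2l1 lay in no anchor. Among markers of other cell types, loops were present for 1 of 10 feeder fibroblast genes (12 to 24 counts per library), 2 of 8 primitive endoderm genes (18 to 28) and 4 of 6 trophoblast genes (202 to 284). The only feeder fibroblast gene with loops was Pdgfra, which is also 1 of the 2 primitive endoderm genes, beside Gata6. Its 2 loops, with 18 and 12 counts in B6 and 24 and 17 in D2, are therefore counted for both cell types. The part of other cell types in the strain differences was not tested.

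The promoter-distal loops joined 9349 promoter anchors to 16339 distal anchors. They spanned 5.01 kb to 1998 kb with a median of 71.9 kb and quartiles of 27.6 and 168 kb. The median loop held 35 counts over the 4 libraries, the quartiles were 25 and 59, and the highest loop held 1550. Promoter anchors were wider than distal anchors, with a median width of 9014 bp, and a wide anchor can merge neighbouring elements. Of the promoter anchors, 81.5% held start sites of 1 protein-coding gene. In all, 9607 of 20807 autosomal protein-coding genes were reached, and 13996 had a start site in some anchor. A promoter anchor had a median of 3 distal partners and at most 40, and 28.5% had 1 partner. A distal anchor had a median of 2 promoter partners and at most 33, and 43.8% had 1. Fewer of these loops had a q-value under 0.01 in all 4 libraries (27.2%) than loops between promoters (49.8%), and more than loops between distal anchors (13.7%).

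The gene nearest to the distal anchor was the gene reached in 14754 loops, or 35.7% (exact Clopper-Pearson 95% interval 35.3 to 36.2%, which covers counting error only because loops share anchors). The remaining 26545 loops went to the promoter of another gene and are said here to bypass the nearest one, whether or not it lies between the anchors. For those the nearest start site lay a median of 14.0 kb from the distal midpoint, close to the 13.7 kb of the loops that did reach it. The loops that bypassed the nearest gene were longer, with a median of 124 kb against 24.0 kb, and held fewer counts, with a median of 32 against 44. By order of distance, the second nearest gene was reached in 15.9% of loops, the third in 9.94%, the fourth in 7.25% and the fifth in 5.37%. Genes ranked 6 to 10 took 14.2% and genes of higher rank took 11.6%. Of all promoter-distal loops 48.2% had no start site of another protein-coding gene between their anchors, and of those that bypassed the nearest gene 19.6%.

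In most cases the nearest gene was contacted by the same distal anchor through another loop. Of the loops that bypassed it, 71.1% came from a distal anchor with a separate loop to the nearest gene. In another 15.7% the pair with the nearest gene was in the table with under 20 counts, and in 12.5% the nearest gene had no start site in any anchor. The nearest gene was under 5 kb from the anchor in 0.591%, below the shortest distance in the table, and in 0.0904% the pair was not listed. Counted by distal anchor, 12090 of 16339 (74.0%) had a loop to the nearest gene. Of all distal anchors, 32.3% had loops to the nearest gene only, 41.7% to the nearest gene and others, and 26.0% to other genes only. When each distal anchor was represented by its strongest loop, that loop reached the nearest gene in 58.3% of cases. Among the 6807 anchors with both kinds of loop it did so in 62.4%.

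The share fell steeply with distance. Loop length itself limits this share, so the fall is in part fixed by the definition. The nearest start site lay a median of 13.7 kb from the distal midpoint in loops that reached it and 14.0 kb in the others. A long loop can reach the nearest gene only where no gene outside its promoter anchor has a closer start site. No expected share at each distance was computed. The nearest gene was reached by 91.0% of loops of 5 to 10 kb, 80.7% of those of 10 to 20 kb and 55.8% of those of 20 to 50 kb. It was reached by 28.1% of loops of 50 to 100 kb, 11.4% of those of 100 to 200 kb, 3.44% of those of 200 to 500 kb and 0.496% of those beyond 500 kb. The share also rose with counts, from 25.5% of loops with 20 to 29 counts to 65.7% of loops with 200 or more. Within loops of 20 to 50 kb it went from 50.1% to 74.3% over the same classes, and within loops of 50 to 100 kb from 24.6% to 51.3%. At 5 to 10 kb it was between 90.3 and 93.6% in the 4 count classes that held over 100 loops, with no such rise.

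**Figure D1:**
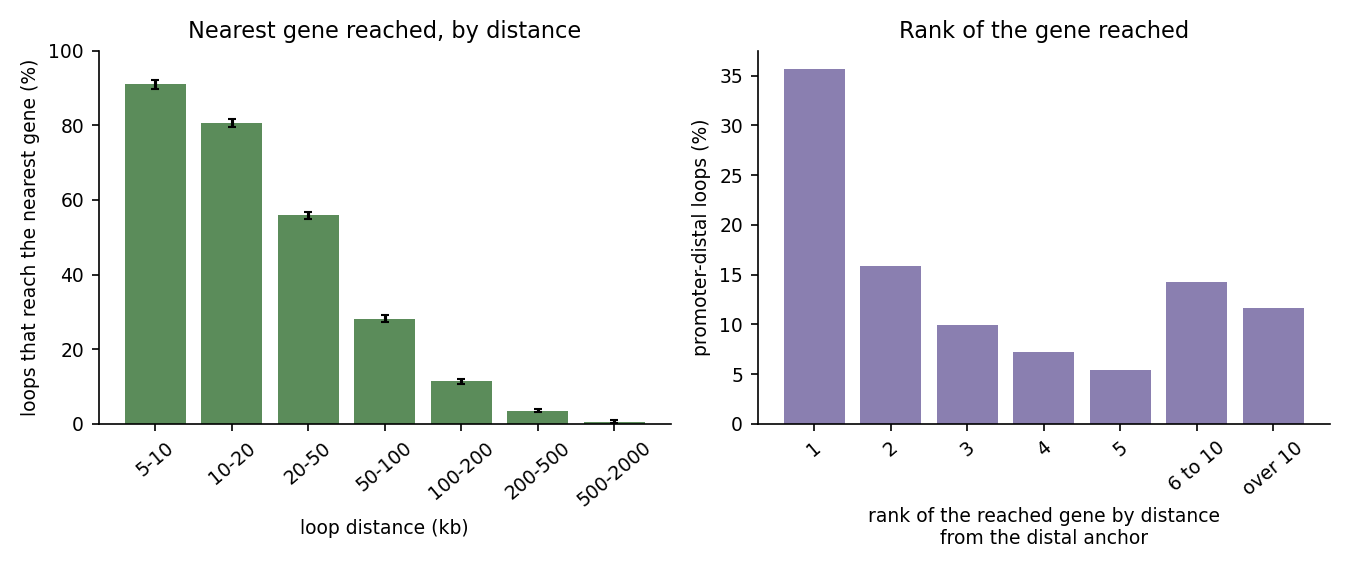
Left, the percent of promoter-distal loops that reached the gene nearest to the distal anchor, by loop distance in kb (bars, with exact 95% intervals for counting error). Right, the percent of loops by the rank of the reached gene in distance from the distal anchor. Rank 1 was reached by 35.7%, and the share that did fell from 91.0% in the shortest loops to 0.496% beyond 500 kb. Loop length itself limits this share, and no expected share was computed.

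The share also differed with the place of the distal anchor. In 9097 loops (22.0%) the distal midpoint lay within the body of the gene reached, and 92.4% of these loops reached the nearest gene, at a median distance of 23.2 kb. In 14398 loops (34.9%) it lay in the body of another protein-coding gene, and 4.97% of these reached the nearest gene, at a median distance of 115 kb. In the 17804 loops (43.1%) with the distal midpoint outside protein-coding genes the share was 31.6%. An anchor inside a gene is near that gene's own start sites, so place and distance are not separate measures.

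The distal anchors with the most promoters lay among dense genes. The highest, an anchor of 38218 bp whose midpoint is in an intron of Sipa1l3 on chromosome 7 (29388362 to 29426579), had loops to 33 promoter anchors with 47 genes. It held 756 and 656 counts in the B6 libraries and 757 and 736 in the D2 libraries, so the strains overlapped. An intergenic anchor 22.1 kb from the start of Ube2q1, a ubiquitin-conjugating enzyme gene on chromosome 3, had 32, and an intergenic anchor 14.2 kb from Eps8l2 on chromosome 7 had 30. The next were an anchor in an intron of Ggnbp1 on chromosome 17 with 26 and a second anchor in Sipa1l3 with 25. These 5 anchors each had a loop to the nearest gene as well.

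Seen from the promoters, Tead1, which encodes a transcription factor of the Hippo pathway, had the most promoter-distal loops, 63, of which 28 reached it as the nearest gene. Itgb5, an integrin subunit gene, had 55 loops of which 7 did so, and Ahdc1 had 54 of which 4 did so. Shroom3, a regulator of actin and cell shape, had 51 loops of which 41 did so, and Commd1 had 44 of which 8 did so. Genes with similar numbers of loops thus differed in how many came from anchors nearest to them.

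Among loops that reached the nearest gene, the highest count was that of H2al2a and A930004D18Rik on chromosome 2, 260 and 245 in B6 and 595 and 450 in D2. The next was that of Fnbp1, with 409 and 327 in B6 and 365 and 377 in D2, where the strains overlapped. Others were the loops of Abl1 and Myo1e, like that of Fnbp1 from an intron of the gene itself, and those of Xpnpep1 and of Sp3 with Gm11084. The eighth was the loop of Nanog, the homeodomain factor of naive pluripotency, over 34.3 kb, with 227 and 213 counts in B6 and 469 and 277 in D2. Among the loops with the most counts that bypassed the nearest gene was a loop of Herc4 from an intron of Mypn, with 1 gene start between. Sall4, a zinc finger factor of pluripotency whose promoter anchor is shared with Atp9a, had 236 and 245 counts in B6 and 288 and 205 in D2 in a loop of 80.0 kb from an anchor nearest to Zfp64. Further ones, with the gene nearest to their distal anchor, were the loops of Hnrnpf and Fxyd4 (Zfp239), Fgr (Fam76a), Pgpep1l and Fam169b (Igf1r), and Dyrk1a (Vps26c). Of the 16 loops of the naming rule, chosen for their counts over all libraries, only that of H2al2a passed the strain test (log2 D2 over B6 of 0.99, SE 0.22, edgeR quasi-likelihood test, adjusted p = 0.00176). Its log2 change stayed at 1.00 without B6 replicate 1 and 0.96 without B6 replicate 2, though neither fit called it (adjusted p = 0.553 and 0.485). Counts are not comparable between these loops as levels, because their anchors differ in width.

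Promoter-distal loops held 19.5% and 19.5% of all counts in the B6 libraries and 20.9% and 20.2% in the D2 libraries. The D2 libraries were both higher, by 1.05 percentage points (B6 19.5% ± 0.0407, D2 20.6% ± 0.533, SD, n = 2 each). Loops between promoters moved the same way by a larger amount, 20.9% ± 0.538 in B6 and 22.9% ± 2.00 in D2. With no count minimum the order for promoter-distal pairs turned, 37.1% ± 0.103 in B6 against 36.6% ± 0.356 in D2. The median distance of their counts was 47.7 and 50.5 kb in B6 and 48.8 and 47.7 kb in D2, and the strains overlapped. The share of their counts that reached the nearest gene was 46.2% and 45.5% in B6 against 46.8% and 46.9% in D2, a difference of 0.978 points with no overlap. With 2 libraries in each strain the smallest p an exact permutation can reach is 0.333, so no test was run on these measures.

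**Figure D2:**
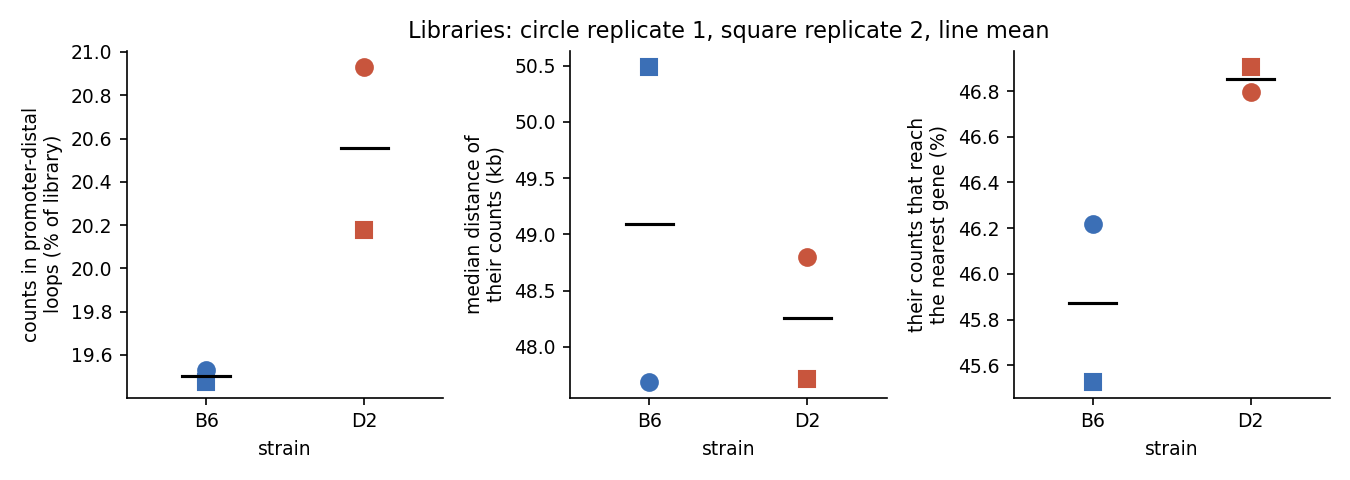
Each point is 1 library (circle replicate 1, square replicate 2) and each line the mean of a strain, for the percent of library counts in promoter-distal loops, the median distance of those counts in kb, and the percent of those counts that reached the nearest gene; the vertical axes do not start at 0. The strains overlapped in distance only, and the mean differences were 1.05 points in the first panel and 0.978 points in the third.

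Few promoter-distal loops passed the strain test after adjustment. Over all 108034 loops, edgeR's quasi-likelihood F-test, adjusted by the Benjamini-Hochberg method, called 1.45% at an adjusted p under 0.05. It called 572 of the 41299 promoter-distal loops (1.39%), of which 173 were higher and 399 lower in D2, against 0.492% higher and 0.957% lower among all loops. At an unadjusted p under 0.05 there were 4747 (11.5%). DESeq2 called 30, of which 14 were higher and 16 lower, and with no count minimum the split turned, with 121 higher and 111 lower. The share called was 1.21% of loops between promoters and 1.63% of loops between distal anchors. Called loops had a median log2 change of 1.41 where higher and -1.77 where lower, and 527 of the 572 differed at least 2-fold. The share called rose with counts, from 0.507% of loops with 20 to 29 counts to 5.89% of loops with 200 or more. The count and its split also moved when a library was left out, which leaves 1 library in a strain. Lower calls were a larger part of the calls without B6 replicate 1, B6 replicate 2 or D2 replicate 1. They were about as many as higher calls without D2 replicate 2. With TMM factors taken over all pairs the split was 202 higher and 286 lower. At a minimum of 50 counts it was 100 higher and 324 lower, and with the replicate number as a block 131 and 350.

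Over all kinds of loop, chromosome 4 held 8087 of the 108034 loops and 215 of the 1034 lower calls. Among loops between promoters it held 51 of the 265 lower calls. It held 3208 of the promoter-distal loops and 97 of their 399 lower calls, so the excess was not particular to them. Of these 97, 85 started at 130 Mb or beyond, where 1452 loops had a median log2 change of -0.45 and 5.85% were called lower. With chromosome 4 left out of the fit 144 loops were higher and 301 lower. Chromosome 19 had the next highest share of lower calls, 2.05% of its 1270 loops.

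The named loops lower in D2 were led by that of Mcm6. Mcm6, a subunit of the replicative helicase, had 52 and 65 counts in B6 and 10 and 9 in D2 in a loop of 11.2 kb between its promoter anchor (chr1:128336719-128350335) and an exon anchor in the gene itself (chr1:128328890-128335767). This anchor lies nearer to the start of Lct, the lactase gene. The log2 change was -2.67 (SE 0.34, adjusted p = 8.61e-11). Gm21915 on chromosome 9 had 191 and 182 counts in B6 against 51 and 59 in D2 (log2 -1.83, SE 0.24, adjusted p = 2.44e-10). Both loops stayed called under every alternative listed for them.

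Zfp951, a zinc finger gene on chromosome 5, had 22 and 21 counts in B6 and 0 and 0 in D2 in a loop of 103 kb to the intergenic anchor chr5:104720596-104740554, part of which is printed above. Taking 3 counts over both D2 libraries as the floor, the loop was at least 15.0-fold lower in D2 (edgeR adjusted p = 1.23e-09). Whether D2 reads align to this anchor of the C57BL/6J assembly was not tested. The shared promoter anchor of Nt5dc3 and Gm49358 had 22 and 24 counts in B6 and 1 and 0 in D2 in a loop from an intron of Ttc41. This is a ratio of 48.2 with an exact 95% counting interval of 8.22 to 1943 (adjusted p = 7.65e-09). DESeq2 gave no adjusted p for either of these loops. Btaf1, which encodes an ATPase that acts on TATA-binding protein, had 38 and 58 counts in B6 and 9 and 7 in D2. Its loop of 315 kb came from an anchor nearest to Ide, the gene of insulin-degrading enzyme, with 2 gene starts between. The remaining lower loops, of Rgcc, of Pus7 with Rint1, and of Zfp27 with Zfp383, had 39 to 62 counts in each B6 library and 6 to 17 in each D2 library. Their log2 changes were between -2.46 and -2.13. In each of these lower loops both D2 libraries lay below both B6 libraries, which the naming rule required.

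Among loops higher in D2, that of Pcmtd1 joined chr1:7084561-7133336 to an intergenic anchor 95.4 kb away (chr1:7199817-7208801) and had 21 and 20 counts in B6 against 86 and 65 in D2. Its log2 change was 1.81 (SE 0.29, adjusted p = 6.86e-07). Lnpep, an aminopeptidase gene on chromosome 17, had 19 and 24 counts in B6 and 88 and 67 in D2 in a loop from an anchor nearest to Vmn2r90, for which it is the fourth nearest gene. Klf6, a Krüppel-like transcription factor gene, had 55 and 38 counts in B6 and 161 and 111 in D2 over 163 kb. The choline transporter gene Slc44a1 had 14 and 12 counts in B6 and 57 and 48 in D2. Both D2 libraries were above both B6 libraries in all of these, and D2 replicate 1 was the higher D2 library in each.

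A loop of Zfp960 had 2 and 1 counts in B6 against 23 and 21 in D2, a ratio of 14.0 with a counting interval of 4.49 to 70.5 (adjusted p = 3.63e-06). Plekhm3 had 76 and 106 counts in B6 and 285 and 193 in D2 over 30.5 kb. Rsbn1l, in a loop from an anchor nearest to Ptpn12, had 9 and 9 in B6 and 56 and 27 in D2. The anchor of Ess2, Gsc2 and Slc25a1 had 54 and 54 counts in B6 and 166 and 127 in D2. Some of these calls were lost when a library was left out, while the direction stayed. The log2 change of Klf6 was 1.49, and 1.26 without B6 replicate 2 (adjusted p = 0.104). That of Plekhm3 was 1.33, and 1.08 without B6 replicate 1 (0.341). That of Rsbn1l was 2.13, and 1.46 without D2 replicate 1 (0.16), and the call was also lost by DESeq2 (0.0641). That of Ess2 was 1.37 and hardly moved, with 1.35 without B6 replicate 1 (0.0985) and 1.39 without B6 replicate 2 (0.0517). Of the 8 lower loops none was lost when a library was left out.

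**Figure D3:**
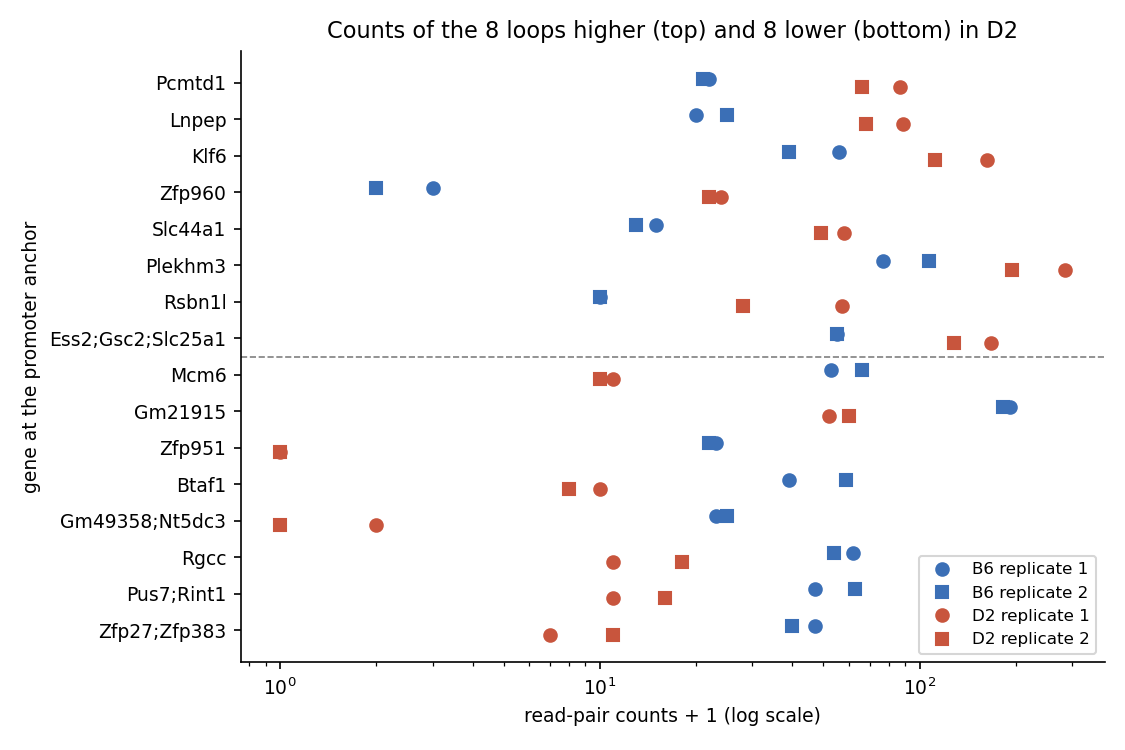
Counts plus 1 on a log scale (horizontal) in each library for the 8 promoter-distal loops named as higher in D2 (above the dashed line) and the 8 named as lower (below it), blue for B6 and red for D2. The loop of Zfp951 had 22 and 21 counts in B6 and 0 in both D2 libraries, and no strain pair overlapped, which the naming rule required.

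Called loops reached the nearest gene in 261 of 572 cases (45.6%), against 35.6% of the loops not called, at median counts of 70 and 35. Other loops of the same anchors moved with them. For loops called lower, the other loops of the promoter anchor had a median log2 change of -0.80 and the other loops of the distal anchor a median of -1.002, over the 366 loops in which both could be measured. For loops called higher the medians were 0.44 and 0.61 over 165 loops. The called loop itself had medians of -1.72 and 1.37 in the same sets. The distal side was further from 0 than the promoter side in 65.3% of lower and 63.0% of higher loops, against 54.4% of the 37154 loops not called. These shares were not tested, because loops share anchors.

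**Figure D4:**
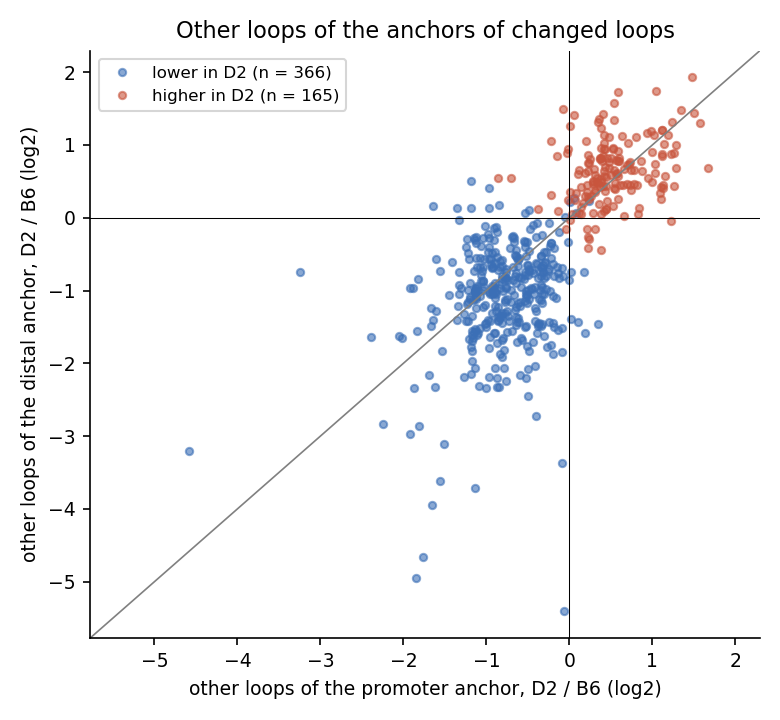
For each called promoter-distal loop, the log2 change D2 over B6 of the other loops of its promoter anchor (horizontal) against that of the other loops of its distal anchor (vertical); blue points are loops lower in D2 (n = 366) and red points loops higher in D2 (n = 165). Most lower loops sit below 0 on both axes, with medians of -0.80 and -1.002, and most higher loops sit above 0 on both.

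Summed over all promoter-distal loops of a gene (genes with the same promoter anchors counted together), 513 of 8001 totals were called, or 6.41%, with 148 higher (1.85%) and 365 lower (4.56%). Of the lower totals 67 lay on chromosome 4, which has 550 totals. Without B6 replicate 1 the calls numbered 244, and without D2 replicate 2 they numbered 872. DESeq2 called 185, and sums over all pairs without a count minimum gave 968 of 11891.

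Among the lower totals, Gm21915 had 299 and 299 counts in B6 and 84 and 104 in D2 over 8 loops (log2 -1.76, SE 0.15, adjusted p = 1.18e-07). Zfp951 had 186 and 171 in B6 and 50 and 56 in D2 over 12 loops (log2 -1.84, SE 0.17). The loop with no D2 count was therefore part of a lower total, in which 5 loops were called. Zfp984, on chromosome 4, had 108 and 105 against 17 and 26. Mcm6 had 134 and 147 against 42 and 45, with 1 of its 8 loops called. Bcar3 had 500 and 521 against 225 and 248. Rcc2, like Zfp984 on chromosome 4, fell by 1.25 on the log2 scale (SE 0.13) over 25 loops, none of which came from an anchor nearest to it. Zdhhc18, a palmitoyltransferase gene also on chromosome 4, had 917 and 909 against 462 and 495 over 40 loops, of which 11 were called. All these totals were lower in both D2 libraries than in either B6 library.

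The higher totals were led by Zfp960, with 47 and 55 counts in B6 and 185 and 161 in D2 over 6 loops, of which 4 were called (log2 1.67, SE 0.18, adjusted p = 2.23e-06). Glo1, which encodes glyoxalase, had 178 and 160 in B6 and 377 and 381 in D2 over 20 loops (log2 1.08, SE 0.13). Its D2 libraries were nearly equal, and 3 of its loops came from anchors nearest to it. Pcmtd1 had 218 and 238 against 593 and 461, and Plcb4, a phospholipase C gene, had 200 and 218 against 533 and 426 with 16 of 17 loops reaching it as the nearest gene. Plekhm3, Slc35g1, Klf6 and the anchor of Skp2 and Lmbrd2 rose with log2 changes between 0.86 and 0.97. These higher and lower totals stayed called under each alternative run on them. Of the genes with the most loops, Ahdc1 on chromosome 4 fell, 1129 and 1156 against 760 and 756 (log2 -0.68, SE 0.11, adjusted p = 1.58e-04). The others, Tead1, Itgb5, Shroom3 and Commd1, did not pass the test.

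Of 21 pluripotency genes, 17 had promoter-distal loops, and for Klf2, Klf5, Tfcp2l1 and Esrrb no start site lay in an anchor. They had 180 loops, of which 35.0% reached the nearest gene, beside 35.7% of all promoter-distal loops, at median distances of 130 and 71.9 kb. One loop was called (0.556%, against 1.39% of all promoter-distal loops), 18 had an unadjusted p under 0.05, and DESeq2 called none. The called loop was a loop of the anchor of Lin28a and Dhdds with 14 and 18 counts in B6 against 5 and 4 in D2 (log2 -1.87, adjusted p = 0.0317). The median log2 change of the totals was 0.01, against 0.02 over all totals. The total of Nanog was called higher, with 391 and 350 counts in B6 and 719 and 475 in D2 over 12 loops (log2 0.60, SE 0.15, adjusted p = 0.0144). D2 replicate 1 was far above the other libraries, and without it the log2 change was 0.23 (adjusted p = 0.315). It was also lost without B6 replicate 2 (0.108) and by DESeq2 (0.464).

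Klf4, a Krüppel-like factor of naive pluripotency, had a lower total, 94 and 100 counts in B6 against 62 and 65 in D2 (log2 -0.70, SE 0.19, adjusted p = 0.022). The call was lost without B6 replicate 1 (0.0653), without B6 replicate 2 (0.153) and by DESeq2 (0.203). The anchor of Lin28a, an RNA-binding protein gene, and Dhdds on chromosome 4 had 109 and 98 in B6 against 47 and 60 in D2 (log2 -1.04, SE 0.19, adjusted p = 0.00118), and stayed called in every alternative. The Lin28a anchor lies beyond 130 Mb on chromosome 4, where 1452 promoter-distal loops had a median log2 change of -0.45. Whether its total fell beyond that stretch was not tested. Sox2 had 108 and 129 counts in B6 and 171 and 152 in D2 over 15 loops, of which 12 reached it as the nearest gene (log2 0.36, SE 0.16, adjusted p = 0.217). Pou5f1 with Tcf19 had 143 and 186 against 162 and 130, and the strains overlapped. None of its 8 loops came from an anchor nearest to it. The strongest, over 53.5 kb from an exon of Cdsn, went to an anchor that Pou5f1 shares with Cchcr1 and Tcf19. The closest gene of that anchor ranked 4 by distance, and the rank of Pou5f1 itself was not measured. Tbx3 had 350 and 350 counts in B6 and 553 and 374 in D2 over 16 loops, of which 13 reached it as the nearest gene. Fgf4, the growth factor gene, had 343 and 341 against 398 and 335 over 14 loops, and Utf1 90 and 84 against 107 and 98 over 8 loops. No loop of Fgf4 or Utf1 came from an anchor nearest to the gene.

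Of 14 genes that respond to the LIF, Wnt, MAPK and Nodal or BMP signals, all had promoter-distal loops, 111 in all, of which 2 were called lower (1.80%, against 1.39% of all promoter-distal loops). DESeq2 called none of them, and 10 had an unadjusted p under 0.05 in edgeR. The total of Id2, which encodes an inhibitor of basic helix-loop-helix factors, was lower, with 64 and 62 counts in B6 against 31 and 30 in D2 (log2 -1.13, SE 0.24, adjusted p = 0.00327, and 0.0596 by DESeq2). Its strongest loop, over 12.5 kb, had 25 and 17 against 8 and 7. Spry2, an antagonist of receptor tyrosine kinase signalling, had 1 called loop with 13 and 26 counts in B6 against 2 and 8 in D2 (log2 -2.01, adjusted p = 0.0069), and its total of 85 and 117 against 81 and 62 did not pass the test (adjusted p = 0.0892). Id1 had 72 and 52 counts in B6 and 41 and 42 in D2 in its only loop (adjusted p of the total 0.0879). Socs3, a feedback inhibitor induced by LIF, had 175 and 181 against 222 and 242, and Axin2, a target of Wnt signalling, 81 and 78 against 106 and 106. Neither passed, at adjusted p of 0.241 and 0.316, although the strains did not overlap.

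Of 10 genes of formative and primed pluripotency, 9 had loops, 58 in all. None was called by edgeR (0%, against 1.39% of all promoter-distal loops) or by DESeq2, which called 30 of all 41299. In edgeR 10 had an unadjusted p under 0.05, as did 11.5% of all promoter-distal loops. At these shares 58 loops are too few for the absence of a call to tell them from the rest. Of their 8 totals 1 was called, beside 6.41% of all totals. It was that of Lef1, a transcription factor of the Wnt pathway, with 71 and 65 counts in B6 against 127 and 103 in D2 (log2 0.67, SE 0.19, adjusted p = 0.0286). The call was lost without B6 replicate 1 (0.108), B6 replicate 2 (0.16) or D2 replicate 1 (0.239), and by DESeq2 (0.234). Foxd3 had 169 and 161 against 231 and 243 (log2 0.43, SE 0.14, adjusted p = 0.0595), and Dnmt3b, a DNA methyltransferase gene, 100 and 115 against 139 and 140 (adjusted p = 0.348). Of 18 regulators of differentiated lineages, 8 had loops, 20 in all with 164 to 201 summed counts per library. No loop or total of these was called by edgeR or DESeq2, and 5 loops and 2 totals had an unadjusted p under 0.05 in edgeR. DESeq2 gave no adjusted p for the totals of Cdx2, Eomes, Gata6, Neurod1 and T. With 1.39% of all promoter-distal loops called by edgeR, 20 loops are too few for the absence of a call to tell them from the rest.

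**Figure D5:**
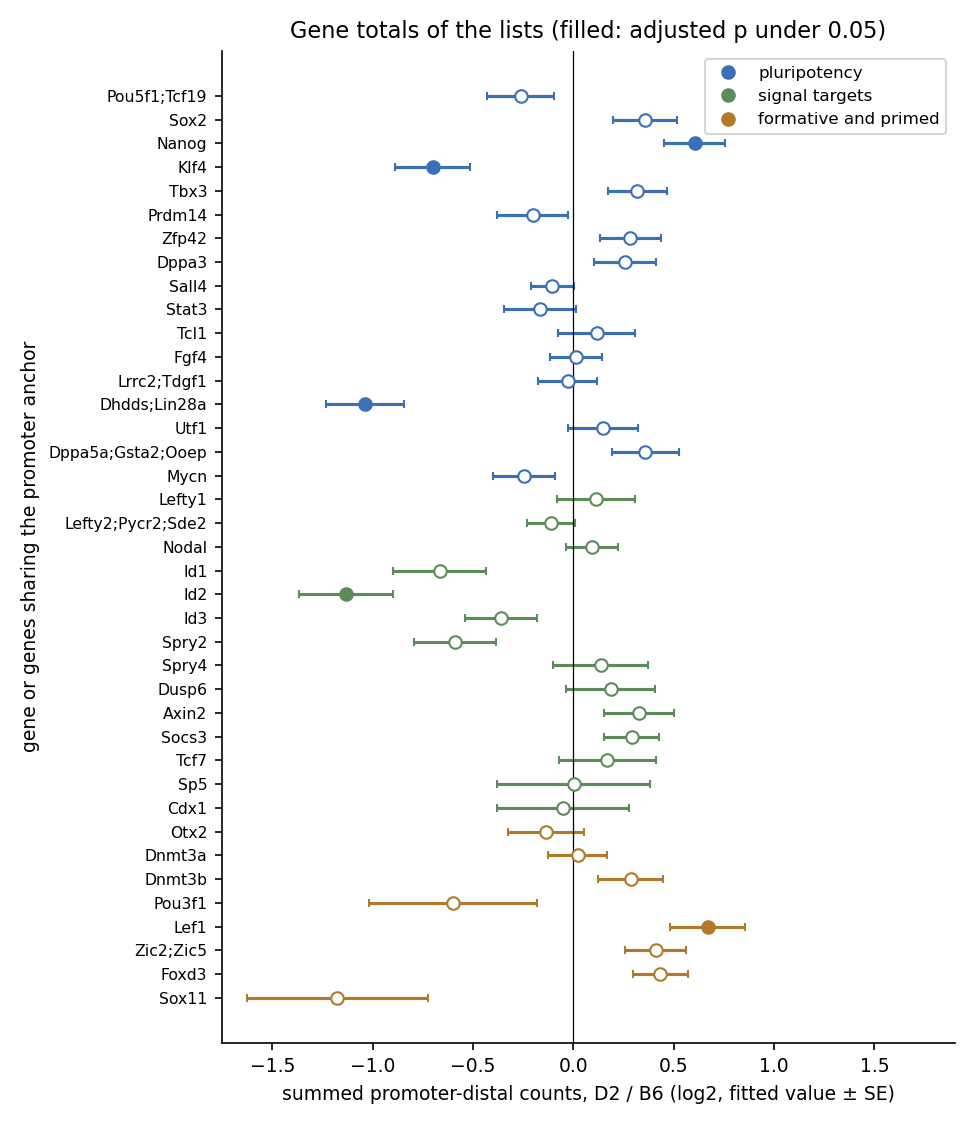
Fitted log2 change D2 over B6 of the summed promoter-distal counts (points) with its standard error (bars) for each gene, or genes sharing a promoter anchor, of the lists of pluripotency (blue), signal target (green) and formative and primed genes (brown). Filled points have an adjusted p under 0.05: Nanog (0.60) and Lef1 (0.67) to the right, and Klf4 (-0.70), Lin28a with Dhdds (-1.04) and Id2 (-1.13) to the left.

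Of 75 ribosomal protein genes, 70 had loops. Their 484 loops reached the nearest gene in 16.3%, at a median distance of 98.4 kb. Of the loops 6 were called (1.24%, against 1.39% of all promoter-distal loops), 2 higher and 4 lower. Counted by gene, 6 of the 70 had a called total (8.57%), with Rps2 and Rpl3l sharing theirs, beside 6.41% of all totals. By totals, Rpl36 with 2410015M20Rik was higher (52 and 58 counts in B6, 101 and 95 in D2). Rps15a with Arl6ip1 (133 and 95 against 77 and 61) and Rps18 were lower. The total shared by Rps2, Rpl3l, Msrb1, Ndufb10 and Rnf151 was lower too (53 and 66 against 39 and 27). These shared totals cannot be assigned to the ribosomal protein genes alone. The anchor of Rps18 holds start sites of 11 genes, so its 107 and 142 counts in B6 and 64 and 59 in D2 cannot be assigned to it alone.

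Whether distal loops changed otherwise than the remaining loops of the same promoter anchor was asked of 8603 promoter anchors with an edgeR test of the interaction. It called 1 (0.0116%), and 677 had an unadjusted p under 0.05. The anchor of Abt1 (chr13:23421416-23455039), the gene of an activator of basal transcription, had 21.9% and 23.2% of its counts in promoter-distal loops in B6 and 34.5% and 34.7% in D2. Its promoter-distal counts were 207 and 241 beside 738 and 799 other counts in B6, and 383 and 316 beside 726 and 595 in D2. The log2 change of the ratio was 0.96 (SE 0.12, adjusted p = 4.12e-06), and limma on the ratio of each library gave an adjusted p of 0.687. Next, with no call, was Ctnnd1 (21.1% and 21.3% in B6, 27.2% and 27.8% in D2, adjusted p = 0.0509). F2rl1 led the other direction, from 78.0% and 76.8% to 62.4% and 67.9% (adjusted p = 0.0706). Without D2 replicate 2 there were 35 calls.

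Whether a distal anchor divided its counts between the nearest gene and other promoters differently in D2 was asked of the 6807 distal anchors with both kinds of loop. The edgeR interaction test called none (0%), limma called none, and 465 had an unadjusted p under 0.05 in edgeR and 446 in limma. Without D2 replicate 2 there was 1 call. The SE of the log2 change had a median of 0.55, which sets the size of a change that was detectable at this depth. The lowest p belonged to an anchor nearest to Gramd1b on chromosome 9, from which 88.6% and 87.0% of counts went to the nearest gene in B6 and 98.9% and 98.8% in D2 (adjusted p = 0.17). An anchor nearest to Dars, 128432081 to 128446080 on chromosome 1 and near the Mcm6 loop above, had 72.0% and 74.5% in B6 and 92.6% and 88.8% in D2. An anchor nearest to Mcm6 itself had 65.9% and 57.4% in B6 and 35.5% and 19.2% in D2 (adjusted p = 0.181). None of these passed the test.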

How the data were processed

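The members and gene lists were chosen with earlier results of these data known. The authors deposited raw counts of read pairs per pair of anchors, and with them, in 1 table per library, a value taken as the q-value of their loop caller. Every count of the library tables equalled the series table. The submitters' processing notes name HiC-Pro 2.11.4, DESeq2 and mm10, the C57BL/6J assembly, with no role. The caller and its settings are not given in the sources used here. All 56562 anchors started and ended at GATC sites of GRCm38. The table holds autosomes and distances from 5 kb to under 2 Mb.

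Start sites of all transcripts were taken from GENCODE M21. The nearest gene was the protein-coding gene with the start site closest to the midpoint of the distal anchor, and a loop reached it if that gene had a start site in the promoter anchor. Where a promoter anchor held several genes, the rank given is that of the gene closest to the distal anchor. Loops with at least 20 counts were fitted with edgeR 4.0.16 (quasi-likelihood, TMM, strain only) in R 4.3.3, with Benjamini-Hochberg adjustment and a threshold of 0.05. Gene totals were fitted in the same way, and the 2 interaction tests had the library as a block. limma 3.58.1 and DESeq2 1.42.0 were alternatives. The edgeR loop fit and the 2 interaction tests were first run on simulated counts. The fit of gene totals, limma and DESeq2 were not. Depth was 2767882 to 2944258 counts per library, and totals do not separate sequencing depth from loop yield. Replicates are separate cell lines, and their numbers link no line across strains: deviations of libraries with the same number correlated at -0.0081 over 41299 loops and -0.025 over 8001 totals.

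Named were, in each direction and by smallest adjusted p, 8 loops and 8 totals whose strains did not overlap (loops without a shared anchor) and 3 anchors of each interaction test. Also named were the 8 loops with the most counts that reached and that bypassed the nearest gene, the 5 genes with the most loops, the 5 distal anchors with the most promoters, and the genes of the lists, of which a part is described. Some items that the rule names are not reported here.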

Additional observations from a re-analysis of the deposited data

How the results depend on the processing

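Called promoter-distal loops numbered 572, and 30 by DESeq2, 232 with no count minimum, and 126 to 676 with a library left out. All 572 kept their sign when refitted with another normalization, DESeq2 or a library left out. These loops were chosen by a fit on the same libraries, which the refits reuse, so the kept signs are no separate evidence. With the replicate block, which links numbers and not lines, 481 were called, 480 of them the same loops. Called gene totals numbered 513, and 185 by DESeq2, 968 over all pairs, 658 with the replicate block, and 244 to 872 with a library left out. The single call on the distal share of a promoter anchor became 0 with limma (601 unadjusted), 0 with limma and the replicate block (577), 23 over all pairs, and 1 to 35 with a library left out. The count of 0 on the nearest gene against other promoters became 0 to 1.

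The 35.7% that reached the nearest gene was 25.9% among start sites of all genes, 29.3% with gene starts only, 39.0% among genes with an anchor in a loop, 46.4% weighted by counts, 49.6% at a minimum of 50 counts, 59.5% at 100, 58.3% over the strongest loop of each distal anchor, 28.3% at a q-value under 0.01 in all libraries (median distance 189 kb, against 60.04 kb for the rest) and 60.3% with both anchors at most 10 kb wide. Alternatives added after seeing the data gave 40.1% for promoter anchors with 1 gene, 6.85% over all promoter-distal pairs and 34.9 to 35.6% with a library left out. Measuring from the anchor's edge cannot change it, since no start site lies within a distal anchor. With no count minimum, D2 minus B6 was -0.533 points for the share of counts, -14.5 kb for the median distance and 2.22 points for the share to the nearest gene. The last was 0.456 points at a minimum of 50. With a library left out, these ran from 0.676 to 1.43 points, -2.23 to 0.571 kb and 0.633 to 1.32 points. Depth limits single loops: the median loop has 35 counts over 4 libraries.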

Other observations

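Totals of promoter anchors with a gene whose symbol starts with Zfp, the zinc finger protein genes, were looked at after the named genes had been seen and were given no test. Of 222 such totals 23 (10.4%) were called, 1 higher (Zfp960) and 22 lower in D2, beside 147 higher and 343 lower among the 7779 other totals (6.30% called). Their median log2 change was -0.04, against 0.02 for the others. On chromosome 4, 6 of 16 were lower, and with that chromosome left out 16 of 206 were lower and 1 was higher. They had a median of 128 counts, against 149 for the other totals.

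Letters of the core CTCF motif, searched on both strands, were found in 9.90% of distal anchors of promoter-distal loops, in 5.55% of distal anchors used only in loops between distal anchors, and in 9.44% of all anchors. Median widths were 4401, 3946 and 4080 bp, and per Mb of anchor there were 18.5, 12.3 and 17.4 matches. Loops whose distal anchor held a match reached the nearest gene in 26.1% of 5592 cases, against 37.2% of the loops without, at median distal widths of 5819 and 4290 bp. The Klf motif, searched as CCACACCC, was in 40.6% of distal anchors and 36.5% of all anchors.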
